A study of Mustela putorius furo with 2 samples.

Results

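The 7 ferret genes BMP5, PLCXD2, ANGPT4, ENC1, NXPH2, FAM160A1 and COLEC12 were examined in single-nucleus transcriptomes of the somatosensory cortex of DCX knockout ferrets. They are 7 of the 28156 features in the deposited matrices, each matched by symbol to 1 row. They were picked because their levels in excitatory nuclei differed strongly between a library of the upper band of cortex and a library of the deeper band. The question taken up here is where these 7 genes sit among excitatory nuclei marked by CUX2, RORB, FOXP2 and FEZF2, and how far their differences remain when nuclei of the same kind are compared.

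The genotype label of both groups is DCX knockout, although the design text of the series speaks of a knockdown, and by label they differ only in the cortical band. Each band is represented by 1 library of nuclei from frozen tissue, captured on the 10x Genomics droplet platform. The labels do not give age, sex, the number of animals or the edited allele, and wild-type tissue was not analysed here. Band, animal and library preparation cannot be told apart with 1 library per band, so every difference below is a value without a replicate check and without a test, and every interval is a 95% interval for counting error only.

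Projection neurons of the cortex use glutamate and are born in an order that places them in layers. CUX2 and RORB encode transcription factors typical of upper and middle layers, and FOXP2 and FEZF2 encode factors typical of deep layers. The product of DCX, doublecortin, binds microtubules in neurons that migrate, and its loss can leave neurons stranded in a second band beneath the cortex. The 7 genes encode proteins of several kinds. BMP5 is a secreted ligand of the bone morphogenetic protein family, ANGPT4 is a secreted angiopoietin that binds the receptor TEK, and NXPH2 belongs to the neurexophilins, secreted glycoproteins of which some bind neurexins at synapses. COLEC12 is a membrane collectin that acts as a scavenger receptor. ENC1 is an actin-binding BTB-kelch protein of neurons, FAM160A1 is a subunit of a complex that links cargo to dynein through HOOK proteins, and PLCXD2 carries the X domain of phosphatidylinositol phospholipase C.

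The upper-band library held 7151 barcodes and 66253015 unique molecular identifiers (UMIs, counts of captured RNA molecules), and the deeper-band library held 9694 barcodes and 78352064 UMIs. After filtering, 6248 and 8211 nuclei remained, of which 3160 (50.6%) and 3465 (42.2%) were excitatory neuron-like. These had median depths of 10752.5 and 10401 UMIs and sums of 37027511 and 38342526 UMIs. In them the 8 excitatory markers summed to 1921 and 2107 CPM, the UMIs of a gene relative to all UMIs of the class and scaled as the usual CPM unit, and the 10 inhibitory markers to 110.3 and 87.9 CPM. DCX itself (ENSMPUG00000004047) was read at 71.4 CPM in the upper-band excitatory nuclei and 77.6 CPM in the deeper-band ones. This level does not check the genotype label, because no wild-type level is at hand and an edit need not lower the transcript. The libraries shared 24 barcode sequences.

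BMP5 (ENSMPUG00000002804) stood at 5.73 CPM (Poisson interval 4.98 to 6.55) in upper-band excitatory nuclei and 23.2 CPM (21.7 to 24.8) in deeper-band ones, a log2 ratio of deeper over upper of 2.02 (exact conditional binomial interval 1.80 to 2.24). PLCXD2 (ENSMPUG00000000413) stood at 16.0 and 41.3 CPM (log2 ratio 1.37, 1.23 to 1.51). These levels were higher in the deeper-band library and rested on 212 and 889 UMIs of BMP5 and 592 and 1583 UMIs of PLCXD2. ANGPT4 (ENSMPUG00000017932) stood at 9.88 and 23.4 CPM (log2 ratio 1.25, 1.07 to 1.42). ENC1 (ENSMPUG00000018802) stood at 14.1 and 30.1 CPM (log2 ratio 1.09, 0.94 to 1.24). All 4 were thus at least 2-fold higher in the deeper-band library, a side on which 0.785% of 15546 genes with at least 50 UMIs fell.

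The other three were lower in the deeper-band library. NXPH2 (ENSMPUG00000013270) stood at 138.6 CPM (134.8 to 142.4) in upper-band excitatory nuclei and 30.4 CPM (28.7 to 32.2) in deeper-band ones (log2 ratio -2.19, -2.28 to -2.10). FAM160A1 (ENSMPUG00000007380) stood at 35.7 and 8.63 CPM (log2 ratio -2.05, -2.22 to -1.87). COLEC12 (ENSMPUG00000005437) stood at 27.7 and 7.15 CPM (log2 ratio -1.95, -2.15 to -1.76). At least 2-fold lower levels were found for 2.48% of the genes. These ratios chose the 7 genes and are given as a description only.

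Other genes lay between the 7 in the order of ratios. Ordered by the interval bound nearest to 0, BMP5 came first on the higher side, with POU2F3 (log2 ratio 1.98) and PKP1 (1.86) directly after it. ANGPT4 came 14th and UNC5D, with a log2 ratio of 1.04, followed as 15th. On the lower side NXPH2 came first, FAM160A1 6th and COLEC12 8th, and VAV2 (-2.05) and TOX (-1.76) came next. The layer genes themselves lay in the same range: the log2 ratio was -2.18 for FEZF2, -2.09 for FOXP2 and 1.00 for CUX2, and 0.57 for RORB.

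To place the 7 genes, excitatory nuclei were clustered again without the 7 genes and without the 4 layer genes, which gave 19 subclusters. A subcluster counted as high for a layer gene when its level reached 1/3 of the highest subcluster, that is 300.3 CPM for CUX2, 515.5 CPM for RORB, 61.9 CPM for FOXP2 and 47.9 CPM for FEZF2. Subclusters 1 to 3, led by FOXP2 and RXFP1, by GFRA1 and TRPC7, and by PROM1 and TLE4, were FOXP2-high. Subclusters 4 and 5, led by KLHL14 and by IQCA1L, were FEZF2-high. Over both libraries FOXP2 stood at 62.9 CPM in subcluster 2, just above its cutoff, and at 56.9 CPM in subcluster 4, just below it. The groups of these subclusters, and the group levels below, thus depend on the cutoff. Subclusters 7 to 10 were high for both CUX2 and RORB, and subclusters 11 to 16 were high for CUX2 alone. Subclusters 17 to 19, led by LGR5, GALNT14 and TMEM132C, were high for none, and the small subcluster 6 combined FEZF2 with CUX2 and RORB. The LGR5-led subcluster 17 held intermediate RORB, at 301.4 and 389.1 CPM in the upper-band and deeper-band libraries. Over both libraries it also held FOXP2 at 29.4 CPM and FEZF2 at 37.2 CPM, under their cutoffs.

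The libraries sampled these groups in different proportions. FOXP2-high nuclei made up 20.3% of upper-band and 6.32% of deeper-band excitatory nuclei (643 and 219 nuclei), and FEZF2-high nuclei 8.89% and 1.24% (281 and 43 nuclei). Nuclei high for both CUX2 and RORB made up 17.5% and 34.9% (554 and 1210), those high for CUX2 alone 24.8% and 49.2% (785 and 1706), and those high for none 27.6% and 7.73% (873 and 268). Deep-layer genes therefore marked a larger share of the upper-band library, and CUX2 a larger share of the deeper-band library. Median depths were 9911 and 9544 UMIs in the FOXP2-high nuclei and lay close to those of all excitatory nuclei in the other large groups. Because genes that differ between the libraries helped to form the subclusters, these shares are a frame for the levels below and not a finding on their own.

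**Figure D1:**
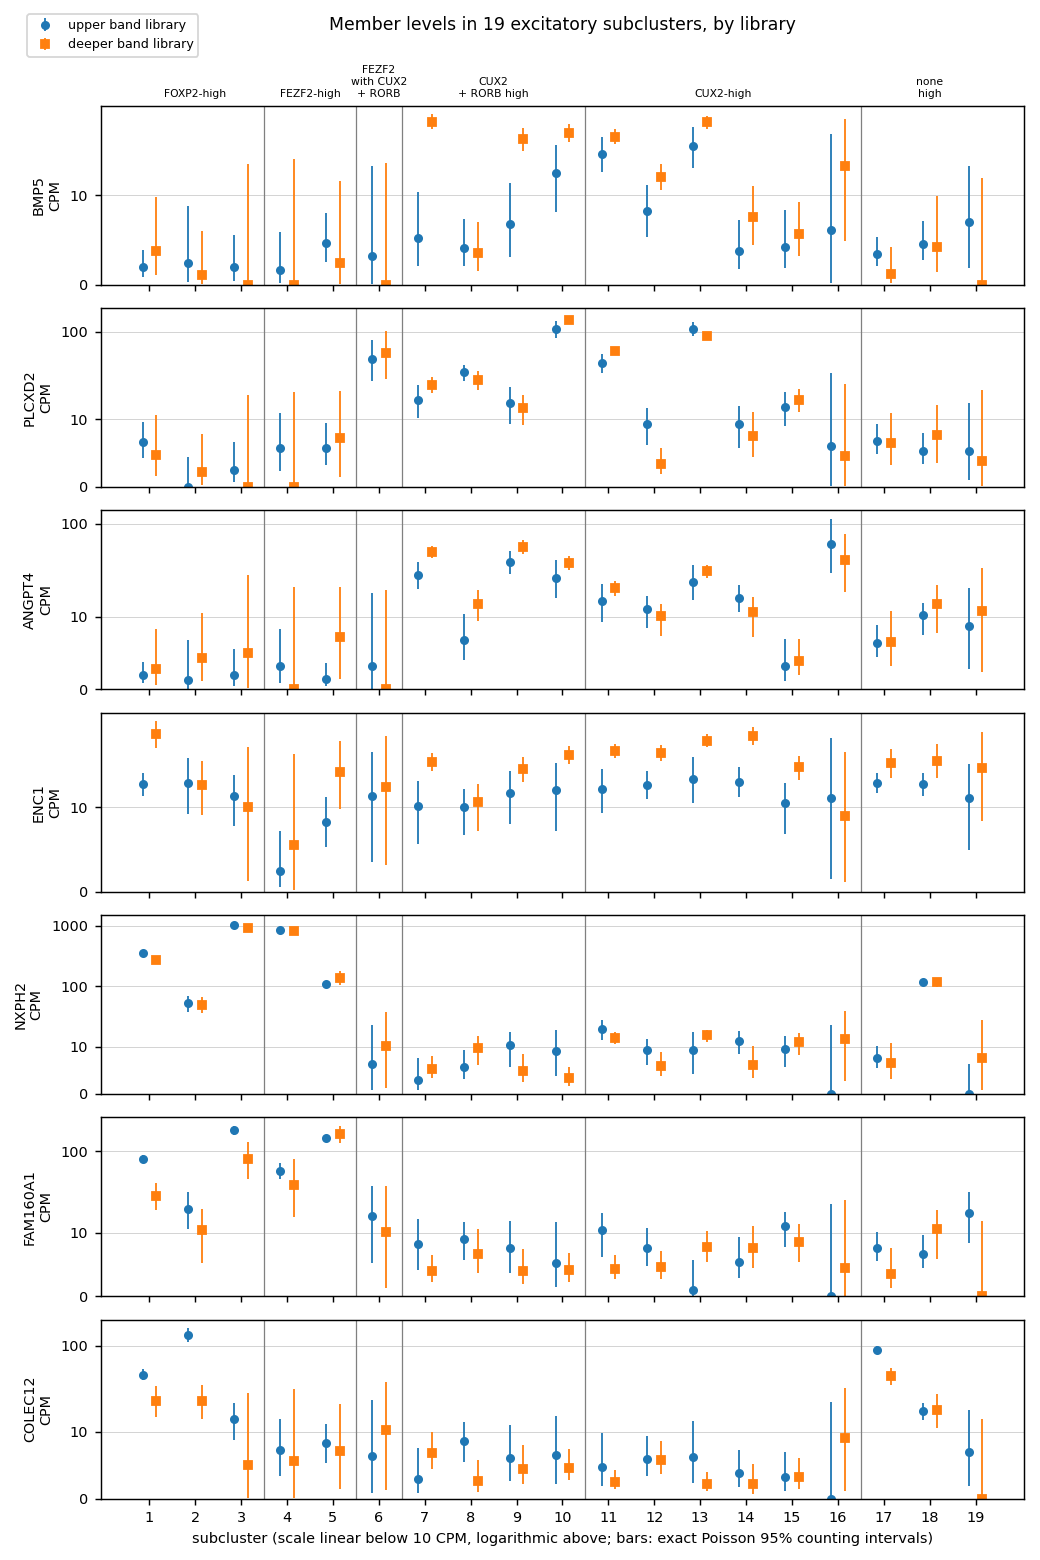
Level of each gene in CPM (y axis, linear below 10 and logarithmic above) in each of 19 excitatory subclusters (x axis), grouped by layer genes between the vertical lines; circles are the upper-band library, squares the deeper-band library, and bars are exact Poisson 95% intervals. NXPH2 reached 1032 and 918 CPM in subcluster 3, while BMP5, PLCXD2 and ANGPT4 peaked among subclusters with CUX2 and ENC1 was spread over most of them.

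BMP5, PLCXD2 and ANGPT4 were higher in nuclei with CUX2 than in FOXP2-high and FEZF2-high nuclei. In the upper-band library the groups with CUX2 held BMP5 at 8.88 CPM and the FOXP2-high and FEZF2-high groups together at 2.66 CPM. In the deeper-band library the values were 27.2 and 2.17 CPM. The log2 ratio of the FOXP2 and FEZF2 groups over the CUX2 groups was -1.74 (-2.38 to -1.14) for the upper band and -3.65 (-5.10 to -2.52) for the deeper band. PLCXD2 showed log2 ratios of -2.50 (-2.93 to -2.09) and -3.73 (-4.79 to -2.84), and ANGPT4 of -3.11 (-3.85 to -2.45) and -2.74 (-3.75 to -1.90). This order held in each library on its own for all 3 genes. The count behind the low side was small, with 6 BMP5 UMIs in the deeper-band FOXP2-high and FEZF2-high nuclei. Nuclei high for none did not enter this contrast. In their subcluster 18 ANGPT4 stood at 10.3 and 13.6 CPM, beside 12.1 and 10.1 CPM in the CUX2-high subcluster 12. BMP5 stood at 4.57 and 4.24 CPM and PLCXD2 at 5.29 and 7.64 CPM in subcluster 18.

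Within the CUX2 nuclei the 3 genes had different peaks. PLCXD2 was highest in subcluster 10, which is led by POU2F3 and MOB3B, at 106.4 CPM (84.5 to 132.3) in the upper-band and 136.5 CPM (124.8 to 149.0) in the deeper-band library. It was also high in subcluster 13, led by EPHA3, at 108.0 and 88.8 CPM, but stood at 9.31 and 3.38 CPM in the CUX2-high subcluster 12, led by TMEM232. PLCXD2 thus marked particular CUX2 subclusters in both libraries. Over all nuclei high for both CUX2 and RORB, PLCXD2 stood at 35.1 and 56.2 CPM (log2 ratio 0.68, 0.45 to 0.91). ANGPT4 was highest among the larger subclusters in subcluster 9, led by PLCH1, at 38.6 CPM (28.7 to 50.7) and 56.6 CPM (47.6 to 66.8). It followed in subcluster 7, led by FSHR, at 28.2 and 49.7 CPM. Both of these are high for CUX2 and RORB together.

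For BMP5 the subclusters with the highest levels differed between the libraries. In the upper-band library it was highest in the CUX2-high subclusters 13 and 11, at 26.7 CPM (17.5 to 39.2) and 23.0 CPM, and low in subclusters 7 and 9, at 5.20 and 6.81 CPM. In the deeper-band library subclusters 13 and 11 stood at 43.2 and 32.5 CPM, and subclusters 7 and 9 at 43.9 CPM (37.6 to 50.9) and 30.7 CPM (24.2 to 38.5). The log2 ratio between the libraries was 3.08 (2.00 to 4.41) in subcluster 7, from 7 and 174 UMIs, and 2.17 (1.17 to 3.36) in subcluster 9, from 9 and 76 UMIs. In subcluster 10 the BMP5 level was 15.8 and 34.9 CPM (log2 ratio 1.15, 0.29 to 2.14). Subcluster 8, led by PDGFD and with the highest RORB level of all, held little BMP5 in either library, at 4.14 and 3.56 CPM. Over all nuclei high for both CUX2 and RORB, BMP5 stood at 6.41 and 31.3 CPM (log2 ratio 2.29, 1.81 to 2.80), and over the CUX2-high nuclei at 10.4 and 24.6 CPM (log2 ratio 1.24, 0.93 to 1.56).

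ENC1 was spread more evenly. Its highest subcluster, with both libraries joined, stood only 1.98 times above the median subcluster, against 8.44 times for BMP5 and 92.3 times for NXPH2. In the upper-band library the FOXP2-high and FEZF2-high nuclei stood at 12.2 CPM and the CUX2 nuclei at 13.9 CPM (log2 ratio -0.19, -0.52 to 0.13). In the deeper-band library they stood at 27.8 and 30.8 CPM (log2 ratio -0.15, -0.50 to 0.19). Taken apart, the upper-band FEZF2-high nuclei stood at 6.49 CPM (4.24 to 9.51), below the 15.7 CPM of FOXP2-high and the 15.4 CPM of CUX2-high nuclei, whose intervals began at 12.8 and 13.1 CPM. In the deeper-band library the FEZF2-high nuclei stood at 16.7 CPM (8.02 to 30.8), from 10 UMIs, and the CUX2-high nuclei at 34.9 CPM (32.3 to 37.6). The lowest level was in the FEZF2-high subcluster 4, led by KLHL14, at 2.85 CPM over both libraries.

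ENC1 was instead higher in the deeper-band library within nearly every kind of excitatory nucleus. It stood at 15.7 and 30.9 CPM in FOXP2-high nuclei (log2 ratio 0.98, 0.51 to 1.43), and at 6.49 and 16.7 CPM in FEZF2-high nuclei (1.37, 0.15 to 2.47). In nuclei high for CUX2 and RORB it stood at 11.5 and 24.2 CPM (1.08, 0.69 to 1.47), in CUX2-high nuclei at 15.4 and 34.9 CPM (1.18, 0.92 to 1.44), and in nuclei high for none at 16.4 and 26.1 CPM (0.67, 0.27 to 1.06). All 5 of these intervals lay above 0. Among the 19 subclusters, the interval of the ENC1 ratio lay above 0 in 11 and below 0 in none. The corresponding counts above 0 were 5 for BMP5, 3 for ANGPT4 and 2 for PLCXD2. For PLCXD2 the interval lay below 0 in 1 subcluster, and for BMP5 and ANGPT4 in none.

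NXPH2 and FAM160A1 sat in FOXP2-high and FEZF2-high nuclei. NXPH2 was highest in subcluster 3, led by PROM1 and TLE4, at 1032 CPM (983 to 1084) in the upper-band and 918 CPM (790 to 1062) in the deeper-band library. Subcluster 4 followed with 841 and 816 CPM, and subcluster 1, led by FOXP2, with 353.6 and 272.7 CPM. In both groups with CUX2, NXPH2 stood at 5.43 to 11.6 CPM in either library. The log2 ratio of the FOXP2 and FEZF2 groups over the CUX2 groups was 5.46 (5.22 to 5.70) in the upper band and 4.81 (4.61 to 5.01) in the deeper band. Subcluster 3 alone supplied 31.4% of the NXPH2 UMIs of the upper-band excitatory nuclei from 141 nuclei, and 15.6% of those of the deeper band from 17 nuclei.

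Within deep-layer subclusters the NXPH2 levels of the 2 libraries lay closer than over all excitatory nuclei. The log2 ratio was -0.17 (-0.40 to 0.05) in subcluster 3 and 0.03 (-0.19 to 0.24) over the FEZF2-high nuclei. In subcluster 1 it was -0.37 (-0.56 to -0.19). With nuclei grouped by their own layer-gene UMIs in place of subclusters, nuclei with a FEZF2 and no FOXP2 UMI held NXPH2 at 191.4 and 89.5 CPM (log2 ratio -1.10, -1.35 to -0.85), so the closeness in FEZF2-high nuclei depended on the grouping. Over all FOXP2-high nuclei by subcluster the ratio was -1.02 (-1.15 to -0.88), from 478.4 and 236.3 CPM. That group held 141 and 17 nuclei of the NXPH2-rich subcluster 3, and 89 and 95 nuclei of subcluster 2, in which NXPH2 stood at 52.1 and 48.7 CPM. The 9 oligodendrocyte markers summed to 98.4 and 55.3 CPM in FOXP2-high nuclei, against 11020 and 11022 CPM in oligodendrocyte-like nuclei. Oligodendrocyte-like nuclei held NXPH2 at 125.1 and 114.1 CPM. The part of oligodendrocyte RNA in the NXPH2 levels was not tested.

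FAM160A1 shared the deep-layer place. Between the libraries its levels differed more than those of NXPH2 in subclusters 1 and 3. Among nuclei with a FEZF2 and no FOXP2 UMI they differed less than those of NXPH2. In the upper-band library FAM160A1 was highest in subcluster 3, at 180.6 CPM (160.1 to 203.0), where the deeper-band library stood at 80.7 CPM (46.1 to 131.1). In the FEZF2-high subcluster 5, led by IQCA1L and the highest of the deeper-band library, it stood at 146.1 and 162.4 CPM, so that the FEZF2-high nuclei as a whole differed little, with a log2 ratio of 0.08 (-0.30 to 0.43). In subcluster 1 it stood at 81.6 CPM (73.1 to 90.8) and 28.6 CPM (19.3 to 40.8) (log2 ratio -1.51, -2.10 to -0.97). Over the FOXP2-high nuclei it stood at 97.5 and 25.8 CPM (log2 ratio -1.92, -2.34 to -1.52). The interval of the FAM160A1 ratio thus lay below 0 in FOXP2-high nuclei and held 0 in FEZF2-high nuclei, and the contrast itself could not be tested with 1 library per band. It also depended on the grouping. When nuclei were grouped by their own layer-gene UMIs, with those holding a FOXP2 UMI taken first, FAM160A1 stood at 77.6 and 45.9 CPM in the remaining nuclei with a FEZF2 UMI (log2 ratio -0.76, -1.12 to -0.41). The 9 astrocyte markers summed to 819 and 793 CPM in FOXP2-high nuclei, against 16701 and 16958 CPM in astrocyte-like nuclei, which also hold FAM160A1. Their part in the FAM160A1 level was not tested.

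COLEC12 sat in the FOXP2-high subclusters 1 and 2 and in subcluster 17, which was high for none of the 4 layer genes. Over all FOXP2-high nuclei it stood at 49.5 and 21.2 CPM. Its log2 ratio of the FOXP2 and FEZF2 groups over the CUX2 groups was 2.65 (2.31 to 3.01) in the upper band. In the deeper band that ratio was 2.21 (1.71 to 2.69). In the upper-band library COLEC12 was highest in subcluster 2, led by GFRA1 and TRPC7, at 133.4 CPM (109.6 to 160.8). The deeper-band library stood at 22.7 CPM (14.1 to 34.7) there. The LGR5-led subcluster 17 stood at 90.4 CPM (82.7 to 98.6) and 44.1 CPM (34.7 to 55.3), and subcluster 1 at 46.1 and 22.9 CPM. The FEZF2-high nuclei, by contrast, stood at 7.99 and 6.69 CPM, and both groups with CUX2 at 3.27 to 6.57 CPM. This contrast holds for the subclusters: nuclei with a FEZF2 and no FOXP2 UMI of their own held COLEC12 at 32.4 and 22.4 CPM. In all 3 subclusters in which COLEC12 was high, its level was lower in the deeper-band library, with log2 ratios of -2.55 (-3.30 to -1.87), -1.03 (-1.40 to -0.68) and -1.01 (-1.69 to -0.40). Subclusters high for none of the 4 layer genes supplied 56.9% of the COLEC12 UMIs of the upper-band library and 35.0% of those of the deeper-band library. These shares too depended on the grouping. Nuclei without a UMI of the 4 genes supplied 19.9% and 17.9%, and nuclei with a FOXP2 UMI 38.5% and 12.8%.

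Vascular-like nuclei were the other place of COLEC12. The 13 vascular markers summed to 35.1 and 64.5 CPM in FOXP2-high nuclei and to 49.7 and 49.7 CPM in nuclei high for none, against 2403 and 2714 CPM in vascular-like nuclei. The part of vascular RNA in the COLEC12 levels was not tested.

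**Figure D2:**
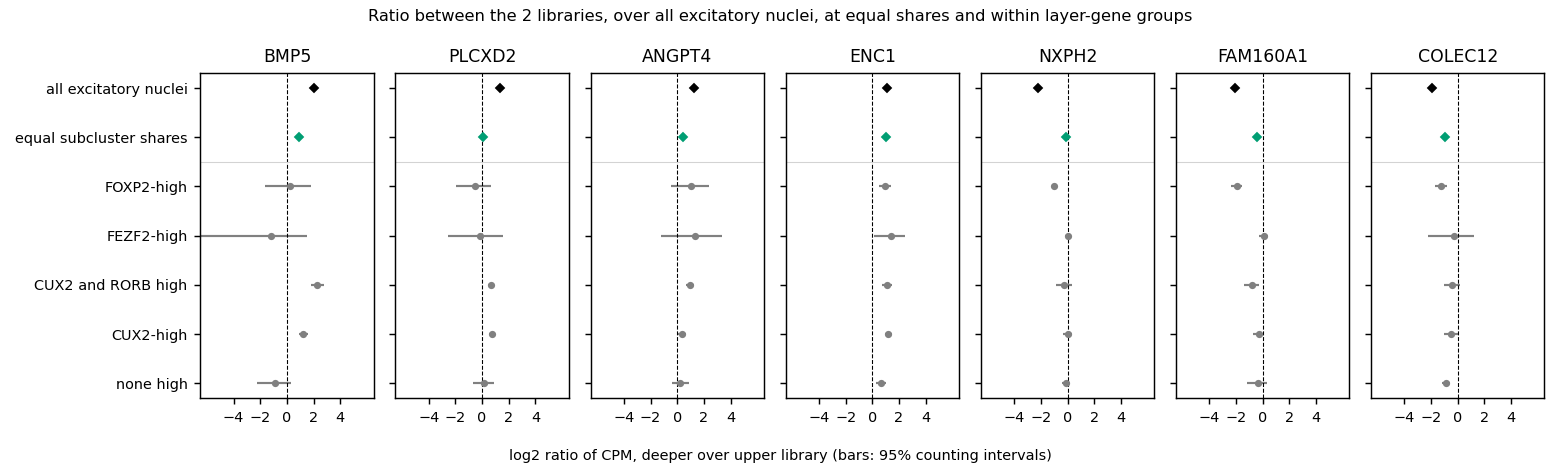
Log2 ratio of CPM, deeper over upper library (x axis), for each gene over all excitatory nuclei (black diamonds), at equal subcluster shares (green diamonds) and within 5 layer-gene groups (grey circles), with bars for 95% counting intervals. At equal shares ENC1 stayed at 1.04 and BMP5 and COLEC12 at 0.93 and -0.94, while PLCXD2 and NXPH2 stood at 0.07 and -0.14.

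The ratios were recomputed with the same share given to each subcluster in both libraries, over the 16 subclusters with at least 20 nuclei in each. This left out 5.50% of the upper-band and 1.60% of the deeper-band excitatory UMIs. ENC1 kept a log2 ratio of 1.04 (0.86 to 1.22), from levels of 14.4 and 29.5 CPM at equal shares, and was higher in 15 of 16 subclusters. BMP5 stood at 0.93 (0.68 to 1.17), from 8.76 and 16.6 CPM. ANGPT4 stood at 0.44 (0.24 to 0.64), and PLCXD2 at 0.07 (-0.09 to 0.22). For PLCXD2 the equal-share ratio could not be told from 0 by counting error.

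Among the genes that were lower, COLEC12 stood at -0.94 (-1.16 to -0.73), from 21.2 and 11.0 CPM, and was lower in 13 of 16 subclusters. FAM160A1 stood at -0.42 (-0.64 to -0.20) and NXPH2 at -0.14 (-0.26 to -0.03). Subcluster 3, with 17 deeper-band nuclei, was among those left out. With every subcluster of at least 10 nuclei taken in, a choice made after seeing the data, NXPH2 stood at -0.15 and FAM160A1 at -0.53. Of the 7 genes, ENC1 alone was past 2-fold at equal shares, where 0.491% of 15466 genes were at least 2-fold higher and 0.504% at least 2-fold lower.

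Some of these values moved with the processing. Over 9 alternatives the equal-share ratio of ENC1 lay between 0.97 and 1.06, under 2-fold with 2 times as many doublets removed (0.97) and with the 7 genes and the layer genes used in subclustering (0.98). That of BMP5 lay between 0.59 and 1.04, and passed 2-fold without doublet removal (1.04) and with the deeper-band shares (1.02). FAM160A1 lay between -1.06 and -0.40, NXPH2 between -0.45 and -0.05, COLEC12 between -0.95 and -0.57, ANGPT4 between 0.33 and 0.47, and PLCXD2 between 0.01 and 0.27. The lowest values of FAM160A1, NXPH2 and BMP5 came with 2 times as many doublets removed. FAM160A1 then passed 2-fold. Each gene kept its direction in all 9.

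The difference in CPM over the same 16 subclusters can be divided into a part from unequal subcluster shares and a part from unequal levels within subclusters. Subcluster 3, where NXPH2 and FAM160A1 were highest over both libraries, did not enter. The divided difference was -74.6 CPM for NXPH2 and -21.3 CPM for FAM160A1. Unequal shares made up 94.7% of the difference for PLCXD2 and 91.8% for NXPH2. They made up 75.7% for FAM160A1, 63.9% for ANGPT4, 55.1% for BMP5 and 52.5% for COLEC12. For ENC1 they made up 6.59%. CUX2, RORB, FOXP2 and FEZF2, treated in the same way, gave 87.7% to 94.2%. By this measure PLCXD2 and NXPH2 resembled the layer genes, and ENC1 stood at the other end.

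A count that needs no clusters was made in single nuclei. Each excitatory nucleus was thinned to 5000 UMIs, which kept 3038 and 3320 nuclei and left out 122 and 145, and was sorted by whether it held a UMI of a layer gene. NXPH2 was then found in 55.0% (exact binomial interval 50.1 to 59.8) of 422 upper-band nuclei with a FOXP2 UMI and in 34.8% (26.1 to 44.2) of 115 deeper-band ones. In nuclei with a FEZF2 UMI the shares were 47.7% and 25.9%, and in nuclei with a CUX2 UMI 5.73% and 4.50%. FAM160A1 was found in 23.9% and 8.70% of nuclei with a FOXP2 UMI, in 20.6% and 12.1% of those with a FEZF2 UMI and in 4.75% and 2.80% of those with a CUX2 UMI. COLEC12 was found in 12.3% and 6.09% of nuclei with a FOXP2 UMI. Nuclei in which none of the 4 layer genes gave a UMI held COLEC12 at 11.9% and 6.23%, about the share of FOXP2 nuclei in each library.

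**Figure D3:**
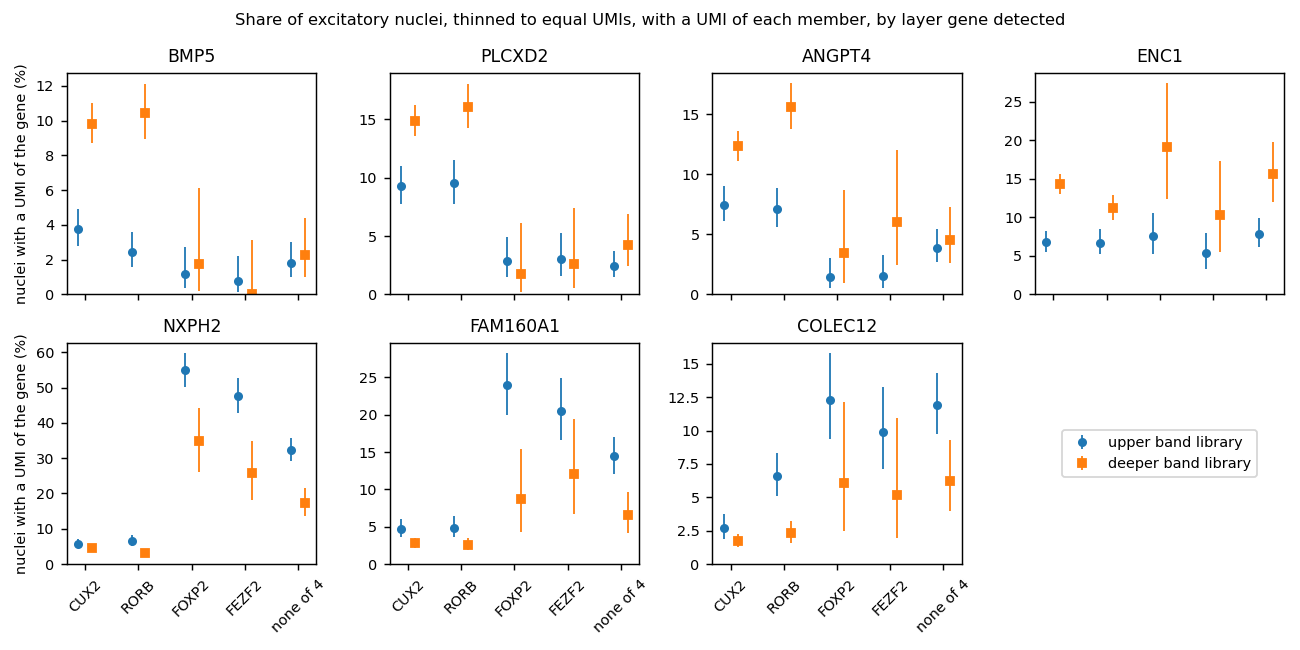
Share of excitatory nuclei, thinned to 5000 UMIs, with at least 1 UMI of each gene (y axis, percent) among nuclei with a UMI of CUX2, RORB, FOXP2 or FEZF2 or of none of the 4 (x axis), with exact binomial 95% intervals; circles are the upper-band library and squares the deeper-band library. BMP5 reached 9.82% and 10.4% of deeper-band nuclei with a CUX2 or RORB UMI, and ENC1 was higher in the deeper-band library in every set.

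Of the genes that were higher in the deeper-band library, BMP5, PLCXD2 and ANGPT4 had the opposite order. BMP5 was found in 3.77% (2.81 to 4.94) of 1326 upper-band nuclei with a CUX2 UMI and in 9.82% (8.72 to 11.0) of 2710 deeper-band ones. In nuclei with a RORB UMI it was found in 2.43% and 10.4%, a wider gap between the libraries. Nuclei with RORB also differed in make-up. Subcluster 17, with RORB and little BMP5, held 473 upper-band and 145 deeper-band nuclei, and subcluster 7 held 104 and 396. The part of this make-up in the gap was not tested. BMP5 was found in 0 of 116 deeper-band nuclei with a FEZF2 UMI, for which the interval reaches 3.13%. PLCXD2 was found in 9.28% and 14.9% of nuclei with a CUX2 UMI and in 2.84% and 1.74% of those with a FOXP2 UMI. ANGPT4 was found in 7.09% and 15.6% of nuclei with a RORB UMI and in 1.42% and 3.48% of those with a FOXP2 UMI.

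ENC1 had shares of 6.79% and 14.3% in nuclei with a CUX2 UMI and 7.58% and 19.1% in nuclei with a FOXP2 UMI. In nuclei with no UMI of the 4 layer genes it had 7.90% and 15.6%. Over the 5 sets, its share lay between 5.33% and 7.90% in the upper-band library and between 10.3% and 19.1% in the deeper-band library. Before thinning, an ENC1 UMI was present in 14.7% of upper-band and 26.8% of deeper-band excitatory nuclei.

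**Figure D4:**
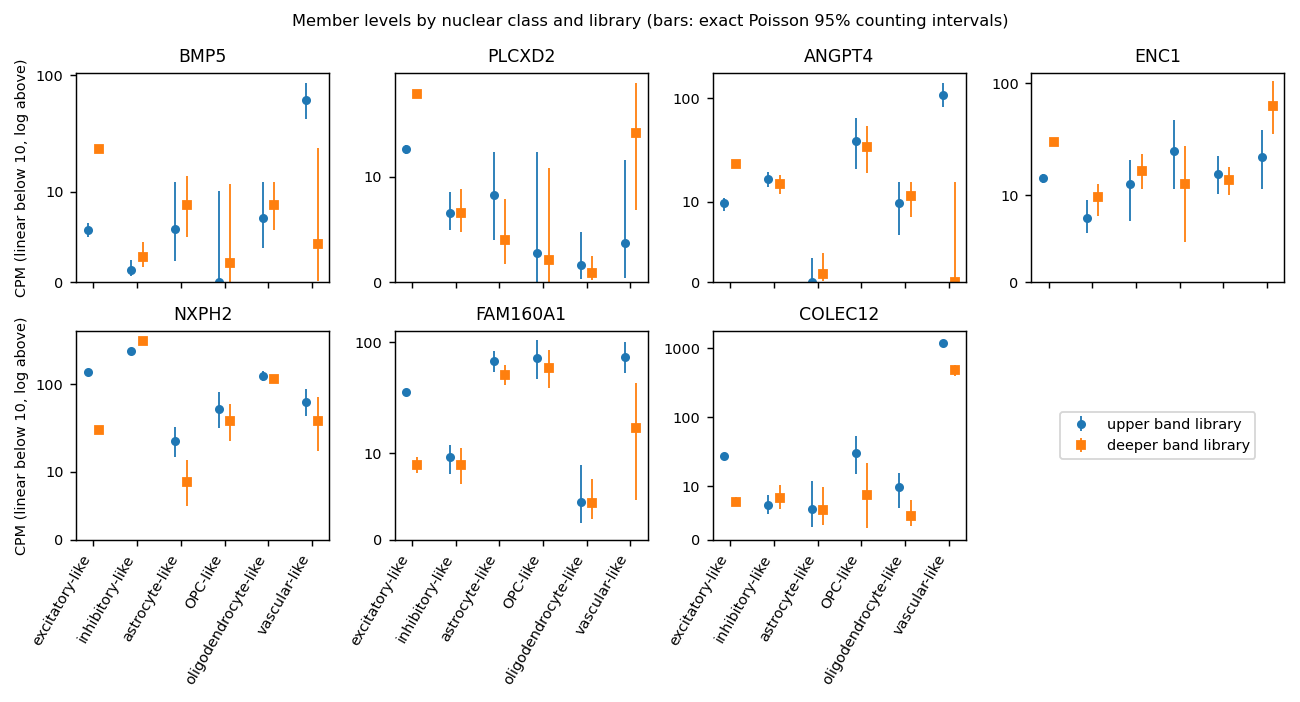
Level of each gene in CPM (y axis, linear below 10 and logarithmic above) in 6 classes of nuclei (x axis) for the upper-band library (circles) and the deeper-band library (squares), with exact Poisson 95% intervals. COLEC12 reached 1203 CPM in upper-band vascular-like nuclei, and NXPH2 stood at 242.8 and 314.6 CPM in inhibitory neuron-like nuclei.

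The other classes of nuclei did not enter the choice of the 7 genes. In inhibitory neuron-like nuclei (1028 and 787) the upper-band level of NXPH2 was 242.8 CPM (232.5 to 253.4) and the deeper-band level 314.6 CPM (301.0 to 328.7) (log2 ratio 0.37, 0.28 to 0.46). Its direction there was opposite to that in excitatory nuclei. By cluster, NXPH2 stood at 322.3 and 471.1 CPM in nuclei led by LYPD6, SHISA6 and SST (log2 ratio 0.55, 0.40 to 0.69), and at 194.7 and 299.1 CPM in a cluster led by BTBD11 and MYO16 (log2 ratio 0.62, 0.47 to 0.77). In the COCH and RELN cluster it stood at 382.9 and 359.4 CPM, with no difference beyond counting error. The VIP cluster held little, at 27.1 and 37.4 CPM.

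NXPH2 was also present in oligodendrocyte-like nuclei, with levels of 125.1 CPM (109.4 to 142.5) and 114.1 CPM (103.2 to 125.8), but stood at 22.5 and 8.55 CPM in astrocyte-like nuclei. After each nucleus was thinned to 1500 UMIs, NXPH2 was found in 12.9% and 12.7% of oligodendrocyte-like nuclei and in 2.68% and 1.46% of astrocyte-like nuclei. Before thinning, oligodendrocyte-like nuclei had a median of 2178 and 1809 UMIs and an NXPH2 UMI in 18.5% and 15.4% of them. These shares differed between the glial classes beyond counting error, and the part of free RNA in them was not tested.

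COLEC12 was most abundant outside neurons. In vascular-like nuclei (265 and 154, with median depths of 1170 and 1119 UMIs) it stood at 1203 CPM (1113 to 1299) and 481 CPM (397 to 578) (log2 ratio -1.32, -1.62 to -1.03). In this class 8.98% of 3875 genes were at least 2-fold lower. Thinned to 1500 UMIs, which left 92 and 31 nuclei, the log2 ratio was -2.66. Markers of other classes also differed between the vascular-like nuclei of the libraries. Oligodendrocyte markers summed to 1425 and 405 CPM, astrocyte markers to 962 and 494 CPM, microglia markers to 118 and 12.7 CPM, and excitatory markers to 603 and 1127 CPM. Their part in the COLEC12, FAM160A1 and ENC1 values of this class was not tested. In inhibitory nuclei COLEC12 stood at 6.48 and 7.82 CPM (log2 ratio 0.27, -0.31 to 0.85).

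FAM160A1 stood at 67.5 and 50.8 CPM in astrocyte-like nuclei and at 71.3 and 58.8 CPM in nuclei like oligodendrocyte precursors (OPC). Neither class differed between the libraries beyond counting error, with log2 ratios of -0.41 (-0.85 to 0.03) and -0.28 (-1.10 to 0.55). In inhibitory nuclei FAM160A1 stood at 9.60 and 8.60 CPM (log2 ratio -0.16, -0.68 to 0.35). In vascular-like nuclei it stood at 73.7 and 16.9 CPM (log2 ratio -2.13, -4.07 to -0.66), from 40 and 4 UMIs. The level was thus lower in the deeper-band library in excitatory and vascular-like nuclei, and the intervals of the other three classes held 0.

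Of the genes that were higher in the deeper band, BMP5, PLCXD2 and ENC1 stood lower in inhibitory than in excitatory nuclei of each library. Upper-band ANGPT4 stood higher in inhibitory nuclei, at 16.5 CPM (13.9 to 19.5), than in excitatory ones, at 9.88 CPM (8.90 to 11.0). In the deeper band ANGPT4 stood lower in inhibitory nuclei. In inhibitory nuclei PLCXD2 stood at 6.60 and 6.57 CPM (log2 ratio -0.01, -0.62 to 0.59), and ANGPT4 at 16.5 and 14.9 CPM (log2 ratio -0.16, -0.55 to 0.23). ENC1 stood at 7.41 and 9.85 CPM (log2 ratio 0.41, -0.11 to 0.94), and BMP5 rested on 12 and 18 UMIs. Within inhibitory nuclei ANGPT4 was highest in the VIP cluster, at 43.5 and 31.6 CPM. In the COCH and RELN cluster ANGPT4 stood at 4.76 and 14.3 CPM (log2 ratio 1.59, 0.19 to 3.14), from 7 and 14 UMIs. Over all inhibitory nuclei, the intervals of PLCXD2, ANGPT4 and ENC1 held 0. In vascular-like nuclei ENC1 stood at 22.1 and 63.3 CPM (log2 ratio 1.52, 0.32 to 2.74), from 12 and 15 UMIs.

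Free RNA in the droplets can give a UMI in nuclei that do not express a gene, and oligodendrocyte-like nuclei served as the comparison for this. At 1500 UMIs, PLCXD2 was found in 1.65% and 4.74% of excitatory nuclei and in 0.294% and 0.145% of oligodendrocyte-like nuclei. BMP5 was found in 0.859% of upper-band excitatory nuclei, which is below the 1.47% of oligodendrocyte-like nuclei, and in 3.06% of deeper-band ones, against 1.01%. ANGPT4 gave 1.24% against 1.76% in the upper band and 3.38% against 1.89% in the deeper band, and ENC1 gave 1.94% against 2.35% and 4.94% against 2.54%. For NXPH2, which oligodendrocyte-like nuclei hold, the share of 3.21% in deeper-band excitatory nuclei was set beside the 1.46% of astrocyte-like ones. Over all upper-band excitatory nuclei BMP5, ANGPT4 and ENC1 were therefore not above the oligodendrocyte-like share when counted at 1500 UMIs. How much of that share is free RNA was not tested, and other upper-band classes lay on both sides of it. Inhibitory nuclei gave 0.296% for BMP5, 1.19% for ENC1 and 2.37% for ANGPT4. ANGPT4 was found in 0% of astrocyte-like nuclei, and ENC1 in 4.24% of OPC-like nuclei. In the subclusters, BMP5 at 26.7 CPM in subcluster 13 and ANGPT4 at 38.6 CPM in subcluster 9 lay above the 7.14 and 9.88 CPM of upper-band oligodendrocyte-like nuclei. The upper-band BMP5 levels of 5.20 and 6.81 CPM in subclusters 7 and 9, and of 6.41 CPM over all nuclei high for CUX2 and RORB, did not. The BMP5 ratios there thus set a deeper-band level against one no higher than that of oligodendrocyte-like nuclei. For ENC1, the highest upper-band subcluster level of 18.5 CPM (11.0 to 29.3), in subcluster 13, overlapped the 15.4 CPM (10.2 to 22.2) of oligodendrocyte-like nuclei. Upper-band ENC1 was therefore not above the oligodendrocyte-like level beyond counting error in any subcluster. It stood at 14.1 CPM (12.9 to 15.4) over all upper-band excitatory nuclei, above the 7.41 CPM (5.70 to 9.46) of upper-band inhibitory nuclei. The part of free RNA in these ENC1 levels was not tested. The deeper-band ENC1 level was 30.1 CPM (28.4 to 31.9) in excitatory and 13.6 CPM (10.0 to 18.1) in oligodendrocyte-like nuclei.

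Relatives of the 7 genes were counted from 9 lists of their families and pathways, of which 60 other genes had at least 50 UMIs in excitatory nuclei. In the deeper band 0 were at least 2-fold higher, 4 were at least 2-fold lower, and 56 were neither, beside the 0.785% and 2.48% of all genes given above. Counted from 1.5-fold, 2 were higher and 9 lower, where 4.26% and 7.71% of all genes were. The 4 were BMPR1B, CHRD, PLCXD3 and KLHL14. The lists were chosen with results of these data known, so these counts are a description.

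Of the BMP pathway, the type I receptor BMPR1B stood at 7.21 and 1.69 CPM (log2 ratio -2.09, -2.50 to -1.69), and was most abundant in FOXP2-high nuclei. The secreted BMP antagonist CHRD stood at 9.78 and 3.76 CPM (log2 ratio -1.38, -1.67 to -1.10), and kept a ratio of -1.34 (-1.69 to -0.99) at equal shares. The receptors BMPR2 (366 and 327.3 CPM) and BMPR1A (37.2 and 31.7 CPM) were read in excitatory nuclei of both libraries. Among the 6 other BMP ligands counted, none was past 2-fold, and BMP6 stood at 6.67 and 5.19 CPM.

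PLCXD3, the nearest listed relative of PLCXD2, had the opposite place and direction. It stood at 60.3 and 20.7 CPM (log2 ratio -1.55, -1.67 to -1.43), and over both libraries at 269.6 CPM in FEZF2-high nuclei and 9.64 CPM in CUX2-high nuclei. At equal shares its ratio was -0.05 (-0.20 to 0.09). Both PLCXD genes thus stood near 0 once subclusters were weighted alike.

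Of other partners, NRXN2, HOOK1 and HOOK3 differed little in excitatory nuclei. TEK, the receptor of angiopoietins, was read at only 0.810 and 1.04 CPM in excitatory nuclei. In vascular-like nuclei TEK stood at 119.8 and 189.9 CPM. The TEK levels are given without an interval, and their differences were not tested. NRXN2, a neurexin, stood at 108.5 and 116.0 CPM (log2 ratio 0.10, 0.04 to 0.16). HOOK1 and HOOK3, dynein adaptors of the complex that holds FAM160A1, had log2 ratios of 0.02 (-0.05 to 0.08) and 0.01 (-0.06 to 0.07). None of the 8 counted relatives of ENC1 was past 2-fold except KLHL14, which stood at 7.51 and 2.09 CPM.

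The genes whose profile over 13 subclusters was most like that of each of the 7 genes were found from the lower of the Pearson correlations in the 2 libraries. The 13 are those with at least 50 nuclei in each library, so that subcluster 3 and the FEZF2-high subclusters 4 and 5, where NXPH2 or FAM160A1 was highest, did not enter. The subclusters share libraries and differ in depth, so these values are descriptions. NXPH2 was most like NCALD (0.90 in the upper and 0.88 in the deeper band), followed by PLOD2 and BMPR1B. COLEC12 was most like FEZF2 (0.90 and 0.93), followed by HS3ST2 and PCLO. This likeness is limited to the 13: in the left-out subclusters 4 and 5 FEZF2 was highest, at 143.7 and 143.8 CPM over both libraries, and COLEC12 stood at 7.12 and 8.13 CPM. FAM160A1 was most like CD9 (0.82 and 0.84), RPTOR and PTPRU. PLCXD2 was most like MOB3B (0.83 and 0.89), which itself had a log2 ratio of 1.08 (0.97 to 1.19), and then MAGI3 and SNTB2. BMP5 was most like GNA14 (0.86 and 0.85), SPRED1 and SNX30, ANGPT4 like PPP1R12A (0.90 and 0.92), EHBP1 and DNAJC2, and ENC1 like SUFU (0.84 and 0.84), FILIP1 and EPB41L4B.

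The profile of each gene over the 13 subclusters was also set against itself between the libraries. The correlation was 0.94 for both ANGPT4 and NXPH2, 0.93 for PLCXD2, 0.88 for COLEC12 and 0.79 for BMP5. It was 0.62 for FAM160A1 and 0.58 for ENC1. The layer genes gave 0.90 to 1.00. ENC1 and FAM160A1 thus had the least similar profiles, and the reason was not tested. Subclusters 3 and 5, where FAM160A1 was highest over both libraries, are not among the 13.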

How the data were processed

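Nuclei of 2 libraries, 1 per cortical band, were analysed, and nuclei were not treated as replicates. The values the authors deposited are whole UMI counts for each gene and barcode, not normalized, per the file headers. The submitters' processing notes name Cell Ranger 6.2.1 and 2.1.1 without a role, and the matrix header gives a software version of 3.1.0. Genome build, annotation release and use of intronic reads are not given in the sources used here.

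Nuclei with at least 500 genes were kept. Scrublet (scanpy 1.11.5, 0.8% expected per 1000 nuclei, automatic threshold) removed 843 (11.9%) and 1397 (14.5%) nuclei as doublets, against expected rates of 5.67% and 7.69%. Free RNA was not corrected. From counts scaled to 10000 per nucleus and log-transformed, 2000 variable genes, 30 components and 15 neighbours entered Leiden clustering at resolution 1 (igraph 0.11.9). Of 28 clusters 24 were named, by class markers raised to 1/3 of the highest cluster in at least 10% of nuclei, with at least 3 raised; names mean resemblance. Unnamed clusters held 8.31% and 12.2% of nuclei. Upper-band excitatory nuclei were most numerous in subclusters 17, 1 and 18, and deeper-band ones in 11, 13 and 7.

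UMIs were summed per library and group and given as CPM with exact Poisson intervals. Log2 ratios carry exact conditional binomial intervals and shares Clopper-Pearson intervals. Equal shares are the mean UMI shares of the 2 libraries. Their interval was computed from Poisson variances in place of planned random draws. The conditional binomial interval of the log2 ratios was tested on simulated sums, and the equal-share interval was not part of that test. Subcluster 6 was added as a group, and a planned search of promoters was not run. Named are the 7 genes, the 4 layer genes, listed relatives past 2-fold or most abundant, the 3 genes most alike and the genes next in order. Members and lists were chosen with earlier results of these data known.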

Additional observations from a re-analysis of the deposited data

Results flagged for a closer look

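Values of 3 genes went in opposite directions in excitatory nuclei and in another class of the same libraries, with both counting intervals clear of 0, and the difference between the classes was not tested. The log2 ratio of NXPH2 was -2.19 in excitatory and 0.37 in inhibitory neuron-like nuclei. The log2 ratio of BMP5 was 2.02 in excitatory nuclei and -3.85 (-9.20 to -1.27) in vascular-like nuclei, where it rested on 33 upper-band UMIs and 1 deeper-band UMI. ANGPT4, with a log2 ratio of 1.25 in excitatory nuclei, gave 59 UMIs (108.7 CPM) in upper-band vascular-like nuclei and 0 in deeper-band ones, at least 8.59-fold lower when 3 counts in the deeper-band class (12.7 CPM) are taken as the limit. A share of 15.1% of the 265 upper-band vascular-like nuclei held an ANGPT4 UMI. In the upper-band and deeper-band vascular-like nuclei the summed oligodendrocyte markers stood at 1425 and 405 CPM, the astrocyte markers at 962 and 494 CPM and the excitatory markers at 603 and 1127 CPM, and their part in the BMP5 and ANGPT4 values was not tested.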

How the results depend on the processing

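Over the alternatives tried for the ratios in excitatory nuclei and at equal shares, none changed the direction of a ratio, and 89 of 107 values stayed within the counting interval of the reported one. Averaging the CPM of single nuclei gave log2 ratios of 2.28 for BMP5 and -2.38 for NXPH2, and thinning gave -2.36 for NXPH2. Removing 2 times as many doublets gave -2.29 for NXPH2 and -2.39 for FAM160A1, and at equal shares 0.59 for BMP5, -0.45 for NXPH2 and -1.06 for FAM160A1, which then passed 2-fold. Without doublet removal the equal-share ratios were 0.27 for PLCXD2, -0.43 for NXPH2 and -0.75 for FAM160A1. A minimum of 1000 genes gave -0.29 for NXPH2 and -0.57 for COLEC12, resolution 0.5 gave -0.31 for NXPH2, and resolution 2 gave 0.26 for PLCXD2 and -0.63 for COLEC12. The cause of these shifts was not tested. Counting from 1.5-fold gave 2 relatives that were higher and 9 that were lower. Of 54 comparisons of layer groups and classes, 38 stayed within the interval and 16 moved. No paired analysis was possible because each band had only 1 library, and no replicate could be left out. Subclusters under 50 nuclei and vascular-like nuclei, with few UMIs, limit what could be seen.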
